A study of Mus musculus with 6 samples.

Results

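The unfolded protein response was followed in olfactory epithelium, the nasal sheet of odour-sensing neurons, supporting cells and basal cells, through 10 genes: Eif2ak3, Eif2a, Atf4, Atf5, Ddit3, Xbp1, Atf6, Ern1, Trib3 and Herpud1. Every probe set whose platform annotation names 1 of these genes alone was taken, which gave 28 of the 45101 probe sets on the array, with 1 to 5 per gene. The samples were 3 homozygous and 3 heterozygous for OMP-GFP by title, and total RNA of each sample was measured on 1 Affymetrix mouse expression array. As background knowledge, the OMP-GFP allele puts green fluorescent protein in place of olfactory marker protein, so homozygous mice lack the marker protein of mature olfactory neurons while heterozygous mice keep an intact copy. All 6 samples carry GFP, the homozygous ones from both alleles, and no wild-type group was analysed here, so loss of the marker protein and GFP dosage cannot be told apart. The age, sex and background strain of the mice, and whether an RNA came from 1 animal or a pool, are not given in the labels, and p-values measure the spread between these samples only.

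When unfolded protein gathers in the endoplasmic reticulum (ER), 3 membrane sensors respond. The kinase PERK, encoded by Eif2ak3, phosphorylates the alpha subunit of the translation factor eIF2, which slows most protein synthesis and favours translation of Atf4, Atf5 and Ddit3 mRNA. The nuclease IRE1, encoded by Ern1, splices Xbp1 mRNA, and ATF6 travels to the Golgi, where it is cut into an active transcription factor. In mouse olfactory neurons this pathway has a particular use: odorant receptor protein made in the ER engages PERK, translation of Atf5 follows, and the resulting signal stabilises the choice of a single receptor gene until adenylyl cyclase 3 ends it. Phosphorylation, splicing, cleavage and translation are not seen in these signals, which measure transcript level in the whole tissue. For that reason fewer cells of a type and less RNA per cell cannot be told apart, and no signal was assigned to neurons.

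Of the 10 genes, Herpud1 alone had groups that did not overlap at more than 1 tested probe set, neither past adjustment. Eif2ak3 and Atf5 had 1 tested probe set each, so they could not meet this criterion. Homozygous arrays all below, as at both Herpud1 probe sets, were seen at 5.01% of all probe sets tested. Both read the same RNA samples, and the share of all genes meeting the criterion was not counted. The promoter of Herpud1 holds letters of a known ER stress element. The sequence of Herpud1 is shown with that of Hspa5, the ER chaperone gene in which the ER stress element (ERSE) is classically described. Capitals mark matches to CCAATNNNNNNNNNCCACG (ERSE), ATTGGNCCACG (ERSE-II) and TGATGNAA (the C/EBP-ATF element bound by Atf4, here on the opposite strand in Herpud1), searched on both strands. The stretches end at the base before the transcript start and were read from RefSeq promoters of build GRCm38.p6.
Herpud1, chr8:94386229-94386428, plus strand: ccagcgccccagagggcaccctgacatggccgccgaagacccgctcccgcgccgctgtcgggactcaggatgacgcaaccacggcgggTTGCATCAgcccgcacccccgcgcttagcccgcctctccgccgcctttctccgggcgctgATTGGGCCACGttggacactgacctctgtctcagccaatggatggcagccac
Hspa5, chr2:34771990-34772089, plus strand: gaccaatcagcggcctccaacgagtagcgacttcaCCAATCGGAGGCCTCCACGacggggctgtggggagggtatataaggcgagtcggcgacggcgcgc

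The ERSE-II letters of Herpud1 lie 52 to 42 bases before its start and its C/EBP-ATF letters 112 to 105 bases before, while the ERSE letters of Hspa5 lie 65 to 47 bases before. Of 32851 promoters of the same length, 250 bases before to 50 after a start, 0.0365% held the ERSE-II letters, 0.119% the ERSE letters and 3.97% the C/EBP-ATF letters. RefSeq promoters were matched for 9 of the 10 genes. Among those, ERSE-II letters were in Herpud1 alone, C/EBP-ATF letters in Herpud1 and Trib3, and ERSE letters in 0. These matches describe letters, not binding, and any tie between them and the signals was not tested.

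Some libraries stood apart before any member was considered. At probe set 1422199_at of Omp the homozygous signals were 5.7, 8.8 and 31.3, and the library labelled heterozygous 1 read 26.3, against 4664 in heterozygous 2 and 9143 in heterozygous 3. Omp read between 7918 and 8774 on all 6 arrays at its other probe set, 1422200_at. Where either lies relative to the replaced part is not given, so neither settles the labels. The library labelled heterozygous 1 also read 7268 for the myelin gene Mbp, against 655 to 1038 elsewhere, and 4899 for Pmp22, against 851 to 1206, while the other measured glial marker, Sox10, was not raised there at 444.6, against 297.6 to 505.1. Heterozygous 3 read 791 for the neuronal gene Rbfox3, against 49.5 to 184, and 738.2 for Cplx1, against 140.0 to 307.7. The remaining measured brain marker, Eomes, went the other way, with its lowest signal in heterozygous 3 at 205.2, against 310.5 to 510.0 elsewhere. Of the 12 markers listed for mature olfactory neurons, 9 passed the filter for bright probe sets. The channel gene Cngb1 was on the array but did not pass. The G protein subunit gene Gng13 read between 9890.2 and 13158 and the channel gene Cnga2 between 5968 and 8056. Dimmer were Cnga4, between 2234.9 and 3867.7, and Slc17a6, between 2470.1 and 2724.5. Of the 7 markers listed for plasma cells, which secrete antibody and use Xbp1 heavily, only Ighm passed the filter for bright probe sets.

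The 10 genes were nearly level between the genotypes. Of the 28 probe sets, 21 were bright enough to test, with at least 1 for each gene, and the other 7 read between 1.6 and 128. At the tested probe sets the difference on the log2 scale, homozygous minus heterozygous, lay between -0.20 and 0.18, at most 1.15-fold in either direction, with 9 higher and 12 lower. That split was 7 and 14 after quantile normalization, and 5 and 16 with arrays shifted to a common median, which moved the median of all probe sets to -0.03. None of the 21 passed a limma adjusted p of 0.05, the lowest adjusted p being 0.900, and 0 had an unadjusted p under 0.05. Over all 22514 probe sets tested 0% passed adjustment and 5.73% had an unadjusted p under 0.05. The 95% interval of the difference lay inside 1.5-fold in both directions for all 21 member probe sets, against 91.5% of all probe sets tested. The median difference was -0.03 over the 21 and 0.01 over all probe sets tested.

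**Figure D1:**
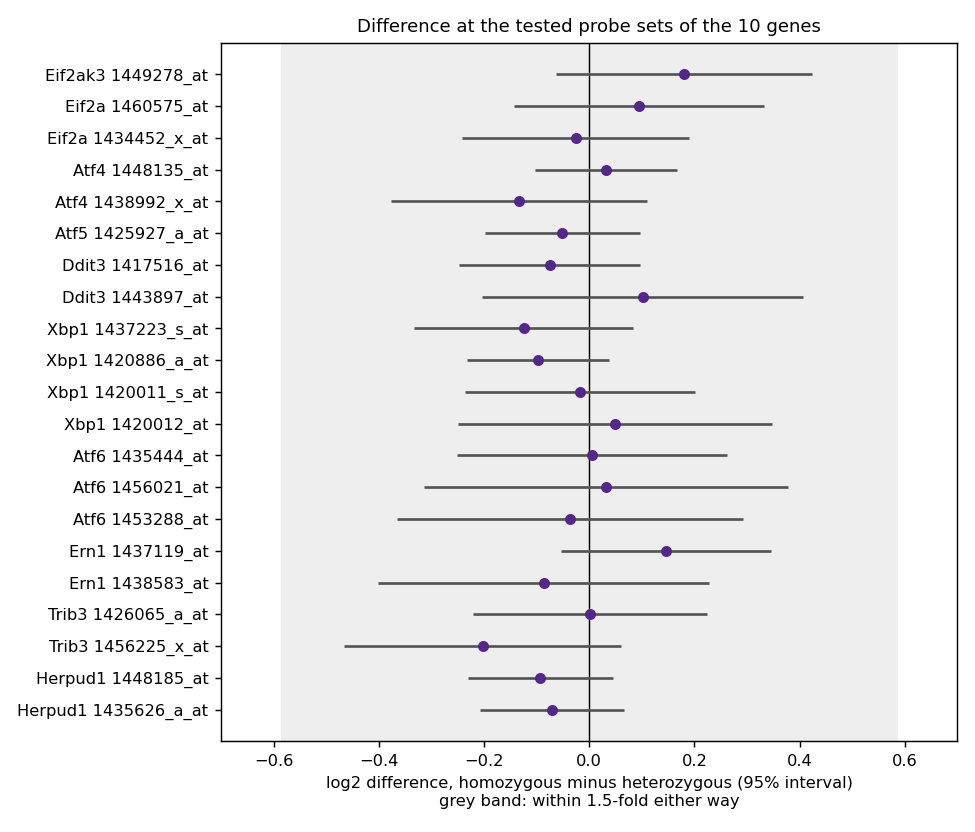
Log2 difference in signal, homozygous minus heterozygous, at the 21 tested probe sets of the 10 genes, with 95% intervals from limma and a grey band for 1.5-fold either way. Every interval crosses 0 and stays within the band; the one that reaches farthest from 0 runs from -0.47 to 0.06, at a probe set of Trib3.

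Among the sensors, Eif2ak3 (PERK) had the largest difference of the genes at their brightest probe set. At 1449278_at it read 1593, 1417 and 1174 in homozygous 1, 2 and 3, against 1155, 1199.5 and 1301 in heterozygous 1, 2 and 3. The groups overlapped, since homozygous 3 lay below heterozygous 2 and 3, and homozygous 1 was the highest array. The difference was 0.18 ± 0.11 (log2, SE) with a limma adjusted p of 0.900. It was 0.08 without homozygous 1 and 0.30 without homozygous 3, where the unadjusted p in limma was 0.0165 and the adjusted p 0.936 (0.574 to 1.00 over the alternatives). Its other probe sets, 1453505_a_at and 1430371_x_at, read 2.4 to 96.9 on all arrays and were not tested.

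Ern1 (IRE1) was the only gene with homozygous arrays all above heterozygous ones at a tested probe set. At 1437119_at the homozygous signals were 637, 669 and 692.0, against heterozygous signals of 629.7, 598 and 567, so the gap between the nearest arrays was small. The difference was 0.15 ± 0.09 (log2, SE; limma adjusted p 0.900), higher in homozygous arrays in every alternative run. The other tested probe set of Ern1, 1438583_at, pointed the other way, with signals of 211, 180.2 and 217 in homozygous arrays and 215, 189.9 and 251 in heterozygous arrays, and a difference of -0.09. Among its 3 untested probe sets, 1421240_at read 128.0, 96.2 and 98.6 in homozygous arrays against 52.4, 32.1 and 115.0 in heterozygous arrays, which overlap, and the others read 1.6 to 53.1. Groups all above in this way made up 1 of the 21 member probe sets and 5.93% of all tested.

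Atf6, the sensor cleaved in the Golgi, was close to level at its 3 probe sets. At 1435444_at it read 690.3, 894 and 690.3 in homozygous arrays, against 771, 800.4 and 683 in heterozygous arrays. Homozygous 2 was the highest array and the other homozygous arrays lay near the lowest. The mean signals were 758 ± 118 and 752 ± 61.3 (SD, n = 3 each), and the log2 differences at its 3 probe sets were 0.01, 0.03 and -0.04.

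The translation branch begins with eIF2. Eif2a, listed among the 10, encodes the initiation factor eIF2A, a separate protein and not the alpha subunit of eIF2, which is encoded by Eif2s1. No value of Eif2s1 was analysed here. Eif2a at 1460575_at read 803, 822 and 711 in homozygous arrays and 656, 830.2 and 699 in heterozygous arrays. These overlapped, with a difference of 0.09 ± 0.11 (log2, SE), against -0.03 at 1434452_x_at, and its untested 1445563_at read 6.3 to 14.1.

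Atf4, the transcription factor whose translation rises when eIF2 is phosphorylated, was among the steadiest genes. Its probe set 1448135_at read 6023, 5941 and 5621 in homozygous arrays, against 5948, 5647.5 and 5601 in heterozygous arrays. The highest array was 1.07 times the lowest, and the difference was 0.03 ± 0.06 (log2, SE; 95% interval -0.10 to 0.17). At 1438992_x_at it read between 1695 and 2426 with a difference of -0.13, the highest array being heterozygous 3. Without that array the difference was -0.01. The untested 1439258_at read 20.8, 9.3 and 11.6 in homozygous arrays, against 8.1, 6.2 and 8.1 in heterozygous arrays, apart but far below the filter level of 154.6. As background, a name ending in x_at marks a probe set whose probes may also match other transcripts.

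Atf5, the factor of receptor choice, had a single probe set, 1425927_a_at. It read 11044, 11761 and 11149.5 in homozygous arrays, against 12845, 11072 and 11326 in heterozygous arrays. The library labelled heterozygous 1 was the highest and the other 5 arrays lay between 11044 and 11761. The homozygous mean was 11318 ± 387 and the heterozygous mean 11748 ± 959 (SD, n = 3 each), which differed by -0.05 ± 0.07 (log2, SE) with a limma adjusted p of 0.955. Without the library labelled heterozygous 1 the difference was 0.01, so its sign rests on that library.

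Ddit3, which encodes the stress factor CHOP, and Trib3, a pseudokinase induced by Atf4 and CHOP, were measured at 2 probe sets each. Ddit3 at 1417516_at read 1346, 1444 and 1387 in homozygous arrays and 1478, 1389.6 and 1541 in heterozygous arrays, a difference of -0.08 ± 0.08 (log2, SE). Its dimmer probe set 1443897_at differed by 0.10, by 0.01 without heterozygous 3 and by 0.15 without heterozygous 1. Trib3 at 1426065_a_at read 1093, 1126.5 and 1067 in homozygous arrays and 1270.3, 1041 and 989 in heterozygous arrays, a difference of 0.00. The homozygous arrays lay close together inside the heterozygous range, SD 30.0 against 149.6. At 1456225_x_at Trib3 read 825, 718 and 836 in homozygous arrays, against 955, 767 and 1050.5 in heterozygous arrays, the lowest difference of all, -0.20 ± 0.12 (log2, SE; limma adjusted p 0.900). Without heterozygous 2 it was -0.33 with an unadjusted p of 0.0135 and an adjusted p of 0.933 in limma (0.798 to 1.00 over the alternatives), and without heterozygous 1 and 3 together it was 0.04. The probe sets of Eif2a, Atf4, Ddit3, Xbp1, Atf6, Ern1 and Trib3 thus gave both signs within each gene.

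**Figure D2:**
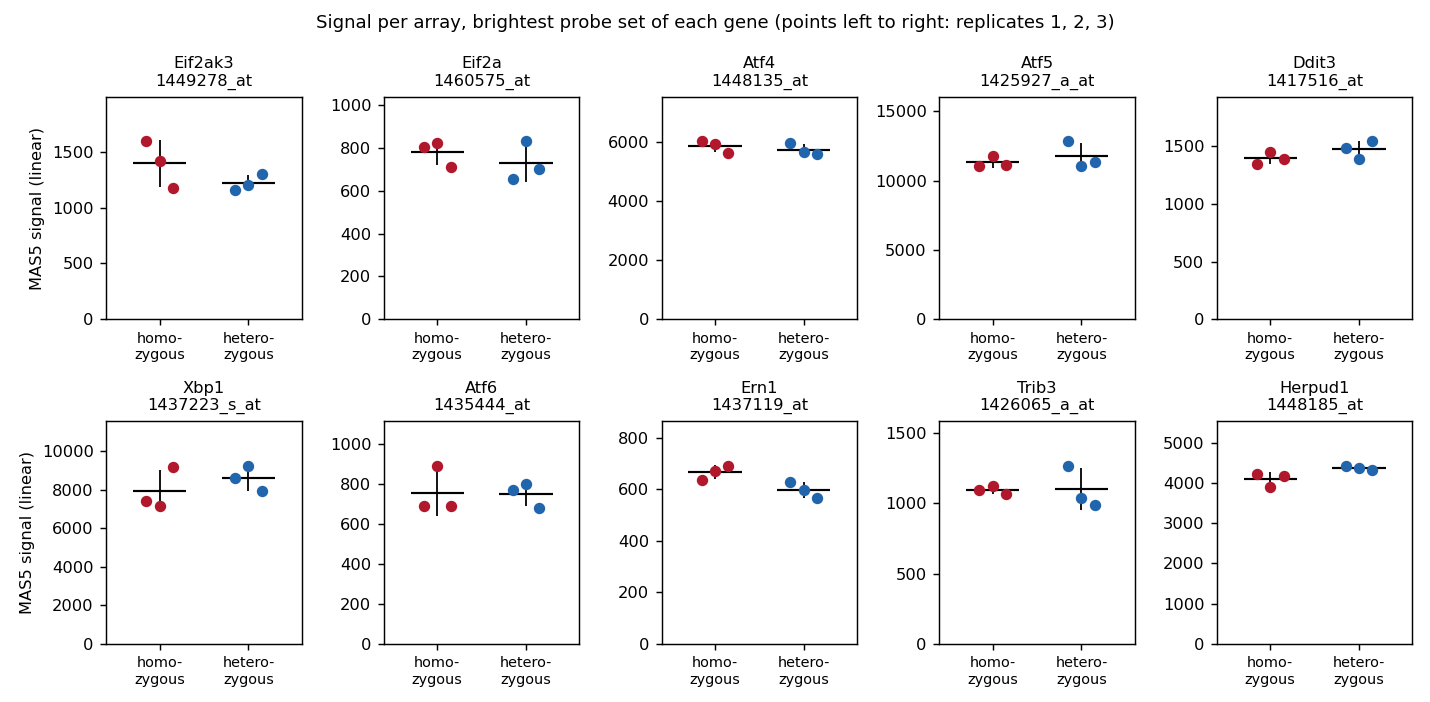
MAS5 signal on a linear axis starting at 0 for each of the 10 genes at its brightest probe set, with homozygous arrays on the left and heterozygous arrays on the right; bars are the mean ± SD of 3 arrays. The groups overlap for 8 of the genes, and are apart for Ern1 (higher in homozygous arrays) and Herpud1 (lower in homozygous arrays). Over all 11426 genes tested they are apart for 551 with homozygous arrays higher and 630 with them lower.

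Xbp1, the transcription factor activated by IRE1 splicing, was lower on average in homozygous arrays at 3 of its 4 probe sets. At 1420886_a_at the groups were apart, with 6647, 6226 and 6835 in homozygous arrays against 6881, 7245.5 and 6950.4 in heterozygous arrays. The difference there was -0.10 ± 0.06 (log2, SE), with a 95% interval of -0.23 to 0.04 and a limma adjusted p of 0.900. At the brightest, 1437223_s_at, homozygous 3 read 9165, close to the 9255 of heterozygous 2, while homozygous 1 and 2 read 7435 and 7151. The heterozygous arrays there read 8609, 9255 and 7930.0, and the difference was -0.12 ± 0.09 (log2, SE). Without homozygous 3 it was -0.23, with an unadjusted p of 0.0167 and an adjusted p of 0.936 in limma (0.568 to 1.00 over the alternatives). Without homozygous 2 it was -0.06 and without heterozygous 2 it was -0.07. At 1420011_s_at and 1420012_at the differences were -0.02 and 0.05.

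Herpud1, an ER membrane protein of ER-associated degradation and a target of all 3 branches, was lower in homozygous arrays at both probe sets. At 1448185_at it read 4225, 3918 and 4187 in homozygous arrays, against 4442, 4372.5 and 4339.5 in heterozygous arrays. Homozygous 2 was the lowest, and the SD was 167.0 among homozygous and 52.3 among heterozygous arrays. The difference was -0.09 ± 0.06 (log2, SE), 0.937-fold with a 95% interval of 0.852 to 1.03, and its limma adjusted p was 0.909. At 1435626_a_at it read 3919.5, 3756.5 and 3820.1 in homozygous arrays, against 4148, 4010.4 and 3921 in heterozygous arrays, a difference of -0.07 ± 0.06. Both probe sets stayed lower in homozygous arrays under each of the 15 alternatives. Groups all below in this way were seen at 3 of the 21 member probe sets, 2 of them from Herpud1 and 1 from Xbp1, and at 5.01% of all tested.

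Marker genes of the cell types in the tissue were read beside these values. Of 11 markers of immature olfactory neurons, 9 were lower on average in homozygous arrays, where 5734 of all 11426 genes were lower. Of these markers 2 were lower at an unadjusted limma p under 0.05, against 2.42% of all genes, and 0 passed adjustment (lowest adjusted p 0.869). Their summed signal was 65722 to 66165 in homozygous arrays, against 67076 to 70136 in heterozygous arrays, which did not overlap. None was at 0, the dimmest being Dpysl5 at 807.8 to 919.9. On the log2 scale the immature markers deviated on average by -0.035, -0.033 and -0.039 in homozygous 1, 2 and 3. In heterozygous 1, 2 and 3 they deviated by 0.083, -0.004 and 0.028. In the same order Herpud1 at 1448185_at deviated by -0.006, -0.114 and -0.019, then by 0.065, 0.043 and 0.032. Xbp1 at 1437223_s_at deviated by -0.144, -0.199 and 0.157, then by 0.067, 0.171 and -0.051. Of the 9 measured markers of mature neurons 5 were higher and 4 lower, with sums of 76414 to 81340 in homozygous and 68335 to 85232 in heterozygous arrays. Their average log2 deviation was highest in the library labelled heterozygous 1, at 0.137, and lowest in heterozygous 3, at -0.217. It lay between -0.002 and 0.051 on the other arrays.

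The 8 immune cell markers were all higher on average in homozygous arrays, where 5692 of all 11426 genes were higher. Of these 8 markers 4 were higher at an unadjusted limma p under 0.05, against 2.41% of all genes, and 0 passed adjustment. Their sums were 13018.5 to 17919 in homozygous and 13711.5 to 14002 in heterozygous arrays. All 3 measured red cell markers were higher on average too, by 0.36 to 0.78, with sums of 707.6 to 1809.6 in homozygous and 419.9 to 770.5 in heterozygous arrays, and homozygous 1 was the highest at each of them. Of the 8 gland markers 6 were higher, Lcn3 by 0.52, with sums of 105142 to 109547 in homozygous and 94861 to 108968 in heterozygous arrays. None of the red cell or gland markers had an unadjusted p under 0.05 in limma. The part of cell composition in the Herpud1 and Xbp1 values was not tested.

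Averaged over the 10 genes, homozygous and heterozygous arrays overlapped. Genes of opposite sign cancel in such an average, and a shift of the set was not tested. Each gene was set against its own mean over the 6 arrays, at its brightest probe set. Homozygous 2 had 8 of the 10 genes above their means and homozygous 3 only 2, although these arrays share a genotype. The average deviation was 0.00, 0.04 and -0.02 in homozygous 1, 2 and 3, and 0.03, 0.01 and -0.05 in heterozygous 1, 2 and 3 on the log2 scale. Heterozygous 3 held the lowest value of 4 genes, and the library labelled heterozygous 1 the highest value of 3. At 20 of the 21 tested probe sets the highest array was under 1.5 times the lowest, beside 77.76% of all probe sets tested. The median of this ratio was 1.28, beside 1.30 over all probe sets tested.

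**Figure D3:**
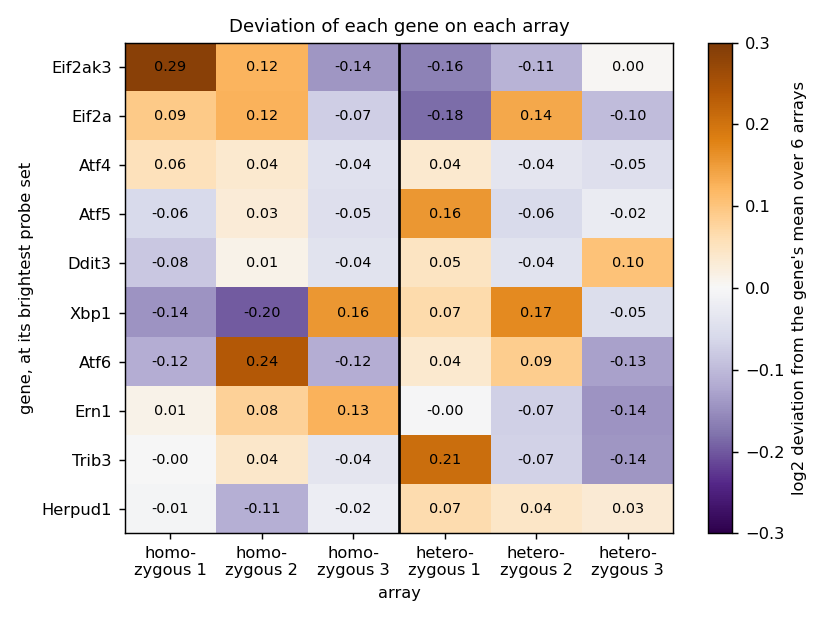
Log2 deviation of each of the 10 genes from its mean over 6 arrays at its brightest probe set, with homozygous arrays left of the line and heterozygous arrays right of it. Colours alternate within both genotypes for most genes. Herpud1 is below its mean in 3 of 3 homozygous arrays and above it in 3 of 3 heterozygous arrays, and Ern1 is the reverse. Among all 11426 genes tested, groups did not overlap for 551 with homozygous arrays higher and for 630 with them lower.

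The other genes of the pathway were compared from lists of its branches, each gene at its brightest probe set. No member of the 7 lists passed a limma adjusted p of 0.05. Among all 11426 genes tested, 2.41% were higher and 2.42% lower in homozygous arrays at an unadjusted p under 0.05, and the median difference was 0.00 on the log2 scale. Groups did not overlap for 551 of the 11426 genes with homozygous arrays higher and for 630 with them lower. Those values are the background of the counts and of the groups called apart that follow. The genes named include the 2 of lowest p in each list, a choice that favours groups apart.

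Of the 13 measured genes for eIF2, its exchange factor eIF2B, other eIF2 alpha kinases and the phosphatase subunits, 5 were higher and 8 lower, with a median of -0.01, and 1 had an unadjusted p under 0.05. That was Eif2s3x, the gamma subunit of eIF2, which read 3782.5, 4309 and 4949 in homozygous arrays and 4648, 5393 and 5045 in heterozygous arrays, a difference of -0.21 ± 0.10 (log2, SE; limma adjusted p 0.869). Without homozygous 1 the difference was -0.12, and without homozygous 3 it was -0.31. Eif2s3x lies on the X chromosome and escapes its inactivation. Xist, the RNA of the inactive X, read 112.0, 5727 and 10210.3 in homozygous arrays and 7041, 9957 and 8164 in heterozygous arrays at 1436936_s_at, the lowest being homozygous 1. The Y-linked copy Eif2s3y read 1485, 1059.7 and 8.0 in homozygous arrays, against 435, 32.8 and 533 in heterozygous arrays, so homozygous 1 and 2 were the highest arrays and homozygous 3 and heterozygous 2 the lowest. Both Xist and Eif2s3y thus read well above their lowest arrays in homozygous 2 and heterozygous 1 and 3. Whether those RNAs were pools of both sexes, and the part of sex in the Eif2s3x value, were not tested. Eif2b1 differed by -0.15 without overlap, and the bright Eif2s2 by -0.05.

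Among 24 measured targets of Atf4 and Ddit3, 14 were higher and 10 lower, with a median of 0.03 and 1 gene in each direction at an unadjusted p under 0.05. Asns, asparagine synthetase and a standard readout of Atf4, was the highest. It read 2309, 2439 and 2559 in homozygous arrays, against 1762, 2257 and 1838 in heterozygous arrays, a difference of 0.32 ± 0.10 (log2, SE; limma adjusted p 0.859). The groups were apart, with heterozygous 2 nearest, and over the alternatives the difference ranged from 0.11 to 0.43. Nars, the asparaginyl-tRNA synthetase, also counted as an Atf4 target, went the other way. It read 3212, 3467 and 3432 in homozygous arrays, against 3743, 3743 and 3749.5 in heterozygous arrays, a difference of -0.15 ± 0.06. The bright members Cebpg and Slc3a2 differed by -0.08 and 0.03. C/EBP-ATF letters were in the promoters of 6 of the 21 targets matched to RefSeq, and the 4 of those that were measured had differences from -0.15 to 0.32.

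ER chaperones and disulfide isomerases, classical targets of ATF6 and Xbp1, numbered 22, with 12 higher, 10 lower and a median of 0.01. Hspa5, the chaperone BiP that holds the sensors inactive, read 11243.5, 12317 and 11164 in homozygous arrays, against 11020.4, 10822 and 10408 in heterozygous arrays. These were apart, with a difference of 0.11 ± 0.06 (log2, SE; limma adjusted p 0.900), opposite in sign to Herpud1. Sdf2l1, an ER stress protein that works with BiP, differed by 0.18 without overlap and had the only unadjusted p under 0.05 of the list, at a limma adjusted p of 0.869. The isomerase Pdia4 differed by 0.20 with overlap, and the bright Ppib by 0.00. ERSE letters were in 7 of the 18 chaperone promoters matched, 38.9%. The measured differences of these 7 genes ranged from -0.04 to 0.11, 3 higher and 4 lower. Those of the other 15 genes, which include the chaperones with no promoter matched, ranged from -0.10 to 0.20.

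**Figure D4:**
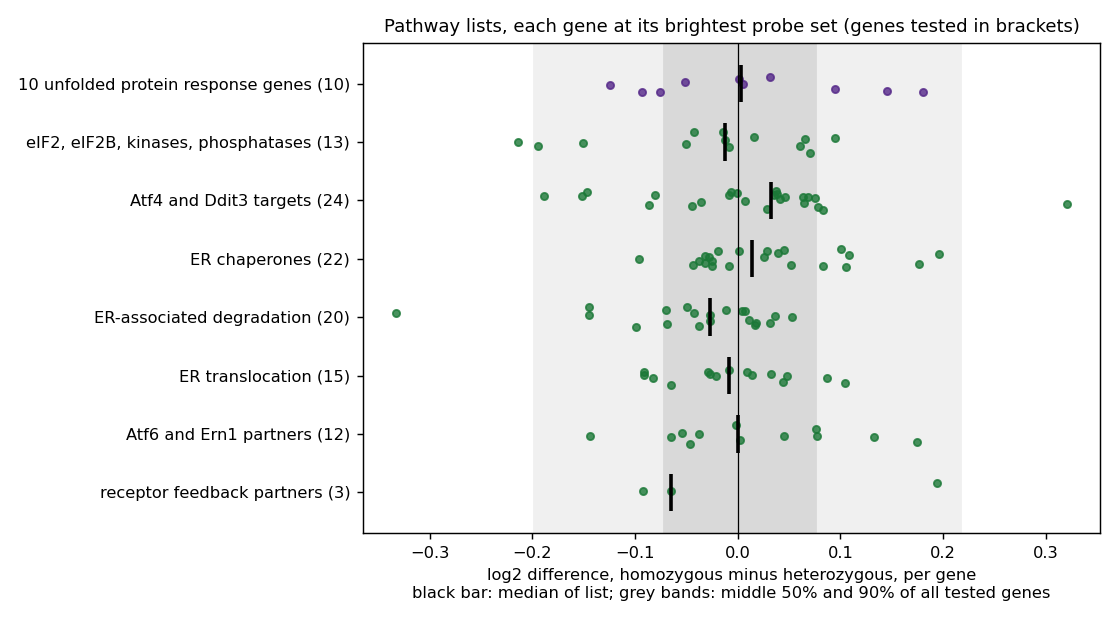
Log2 difference, homozygous minus heterozygous, of each measured gene at its brightest probe set in 8 lists, with list medians as bars and the middle 50% and 90% of all tested genes as grey bands. All 8 medians lie within the inner band, which runs from -0.07 to 0.08, and Asns and Man1b1 lie farthest out. The bands describe single genes, and a median of several genes varies less, so its place in the band does not test a shift.

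Of 20 measured genes of ER-associated degradation, the pathway in which Herpud1 works, 8 were higher and 12 lower, with a median of -0.03 and 1 gene lower at an unadjusted p under 0.05. Man1b1, a mannosidase that trims glycans of misfolded proteins, read 221, 213 and 210.1 in homozygous arrays, against 298, 266 and 277 in heterozygous arrays, a difference of -0.33 ± 0.12 (log2, SE; limma adjusted p 0.859). The groups were apart, and it stayed between -0.38 and -0.235 over the alternatives that kept it. Herpud2, the relative of Herpud1, differed by -0.15 without overlap, with 824, 822 and 922 in homozygous arrays and 944, 972 and 933 in heterozygous arrays. The bright members Vcp and Selenos differed by -0.07 and 0.02.

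ER translocation genes, many of them Xbp1 targets, gave 7 higher and 8 lower of 15, with a median of -0.01 and 0 at an unadjusted p under 0.05. Spcs3 and Spcs1 of the signal peptidase differed by 0.10 and 0.04, the channel subunit Sec61b by -0.09 and Ssr3 by 0.01. The 12 measured partners of Atf6 and Ern1 were split 6 and 6, with a median of 0.00 and 0 at that threshold. Rtcb, the ligase that joins spliced Xbp1 mRNA, differed by -0.14, with 2702, 2749 and 2664 in homozygous arrays, against 3178, 2869 and 2936 in heterozygous arrays. Wfs1, an ER membrane protein, differed by 0.17, also without overlap, and Tmbim6 by -0.04.

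Of the partners of Atf5 in receptor feedback, 3 of 5 were measured, and Rtp1 and Rtp2 were not analysed here. Adcy3, the cyclase that ends the feedback signal, read 5841, 4792 and 4793 in homozygous arrays, against 5431, 4909 and 3349 in heterozygous arrays, a difference of 0.19 ± 0.15 (log2, SE; limma adjusted p 0.911). Heterozygous 3 was the lowest array, and without it the difference was -0.01. The mature neuron markers, Adcy3 among them, were also lowest on average in heterozygous 3, with a log2 deviation of -0.217. Kdm1a, a histone demethylase needed for receptor activation, differed by -0.07, and Reep1 by -0.09.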

How the data were processed

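Total RNA of 6 olfactory epithelium samples was measured, 1 array each. The submitters' processing notes name MAS5, and the deposited values are intensity, 1 linear signal per probe set; version, settings and build are not given in the labels. Each array's 2% trimmed mean was 500, so nothing was rescaled. Medians ran from 147.9 to 163.7, and precision is limited by having 3 arrays per genotype.

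Probe sets were named from the platform annotation where it gives 1 gene (34958 of 45101; 932 name several and 9211 none). The log2 of each value plus 38.8 (the pooled 25th percentile) was used, which understates differences of dim probe sets. Probe sets with a mean at or above the median were tested (22514, controls left out) with limma 3.58.1 in R 4.3.3 (lmFit, eBayes with intensity trend), and p-values were adjusted by Benjamini-Hochberg over all of them at 0.05. Genes of a list were read from this fit at their brightest probe set. Named from each list were the 2 genes of lowest p and the 2 brightest. Members and lists were chosen with earlier results of these data known. Promoter letters were searched in RefSeq GRCm38.p6 windows, 250 bases before to 50 after a start. Alternatives were other offsets, scalings and filters, no trend, a replicate block and arrays left out.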

Additional observations from a re-analysis of the deposited data

How the results depend on the processing

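The 10 genes had 0 probe sets past adjustment in limma under all 15 alternatives (2 other offsets, quantile or median scaling, 2 other filters, no intensity trend, a replicate block, each array left out, and heterozygous 1 and 3 left out together), and the 7 lists 0 genes under these or with a gene's probe sets averaged. Over all probe sets 0 passed, but 1 with the pooled-median offset, 0 to 25 with 1 array left out (25 of them when the library labelled heterozygous 1 was dropped), and 30 with heterozygous 1 and 3 dropped, which leaves 1 heterozygous array, assumed to vary like the others. Pairing is not given in the labels. Deviations from group means correlated at 0.016, -0.12 and -0.047 between same-numbered arrays, and at -0.073 to 0.129 between arrays of unlike number. With 3 arrays per group, whose deviations sum to 0, these correlations cannot exclude pairing. The replicate block called 0 probe sets and changed no call.

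Signs of small differences turned; the cause was not tested. After quantile normalization Atf6 was -0.0062 at 1435444_at and -0.0034 at 1456021_at. With a common median these were -0.0371 and -0.0112, Atf4 (1448135_at) -0.0103, Trib3 (1426065_a_at) -0.0407, Slc3a2 -0.0132, Ppib -0.0407, Selenos -0.0256 and Ssr3 -0.0288. Without heterozygous 1 and 3, Eif2a (1460575_at) was -0.091, Atf4 (1438992_x_at) 0.0212, Atf5 0.0311, Ddit3 (1417516_at) 0.0021, Xbp1 (1420012_at) -0.0175, Atf6 (1435444_at) -0.0845, Ern1 (1438583_at) 0.0764, Trib3 (1456225_x_at) 0.0424, Ppib -0.0909, Selenos -0.0028, Ssr3 -0.0248, Spcs1 -0.0164, Spcs3 -0.0062 and Kdm1a 0.0556. With 1 array left out, ranges across 0 were -0.092 to 0.0148 for Atf5, -0.1133 to 0.0643, -0.114 to 0.0438 and -0.0806 to 0.2037 for Atf6 (1435444_at, 1453288_at, 1456021_at), -0.0686 to 0.0228 for Eif2a (1434452_x_at), -0.1687 to 0.0016 for Ern1 (1438583_at), -0.0683 to 0.106 for Trib3 (1426065_a_at), -0.1073 to 0.057 and -0.065 to 0.1177 for Xbp1 (1420011_s_at, 1420012_at), -0.0122 to 0.3332 for Adcy3, -0.1077 to 0.0131 for Eif2s2, -0.0261 to 0.0478 for Ppib, -0.0099 to 0.0379 for Selenos, -0.0138 to 0.0606 for Slc3a2, -0.0488 to 0.0567 for Ssr3 and -0.1261 to 0.0445 for Tmbim6. List medians with 1 array left out ran from -0.0411 to 0.0131 for the eIF2 genes, -0.009 to 0.0334 for Atf4 and Ddit3 targets, 0.0069 to 0.0358 for chaperones, -0.0458 to 0.0125 for ER-associated degradation, -0.0662 to 0.0407 for translocation, -0.0215 to 0.0536 for partners of Atf6 and Ern1 and -0.0962 to -0.0105 for receptor feedback.

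Signals of the 7 untested probe sets, 1.6 to 128, are too dim for a fold. With no filter 0 of the 28 passed.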
